A study of Mus musculus with 12 samples.

Results

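The genes described here are 34 markers of adult neurogenesis, listed by symbol and ordered from the neural stem cell to the young neuron. They comprise 13 genes of stem cells, 5 of neurogenic commitment, 15 of young neurons and 1 of mature neurons (Rbfox3, which encodes the nuclear protein NeuN). All 34 were measured, among 19938 genes in all, each by the probe set of highest mean signal that carries its symbol alone. In the adult mouse, radial glia-like stem cells of the dentate gyrus give rise to granule neurons within the hippocampus. Stem cells in the wall of the lateral ventricle give rise to neuroblasts that migrate into the olfactory bulb and become interneurons there, so the bulb receives young neurons whose stem cells lie mostly outside it. Many of the markers are shared with other cells: Slc1a3, Sox9 and Hopx are also expressed by astrocytes, Lpar1 by oligodendrocytes, and Neurod2, Stmn2, Ncam1, Tubb3 and Calb2 by mature neurons.

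RNA came from hippocampus and olfactory bulb of adult mice labelled C57BL/6, 3 wild type and 3 knockout for RasGRF2, a neuronal exchange factor that activates Ras and Rac proteins. The 12 samples form 4 groups of 3, each sample hybridised to its own array, and each value is a probe set's intensity on the log2 scale, processed by the robust multi-array average (RMA). All animals were kept in a conventional facility with exposure to common pathogens and no treatment is recorded. The sources used here do not say which exons the knockout lacks or whether the animals were littermates. The series title names 2 questions, how dense the nestin-positive stem cells of the dentate gyrus are and how neurons there begin to differentiate. In bulk tissue, fewer cells of a type and less RNA per cell cannot be told apart.

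Replicate arrays of a group correlated at 0.9898 to 0.9948 over all probe sets. Rasgrf2 itself read 9.32, 9.14 and 9.18 in wild-type hippocampus and 8.64, 8.76 and 8.49 in knockout hippocampus, lower in every knockout array (-0.58, SE 0.077, limma adjusted p = 0.00197). In the bulb it read 9.52, 9.52 and 9.47 against 9.33, 9.35 and 9.43, and the difference of -0.14 did not pass (limma adjusted p = 0.532). Markers of each tissue, chosen with earlier results of these data known, lay on the side of their label. All 7 genes of hippocampal principal neurons were higher in hippocampus in both genotypes (17.5% of all genes in wild type, 19.2% in knockout). All 8 genes of bulb neurons were lower there in both genotypes (23.4% and 19.9% of all genes). Of the 34 neurogenesis genes, Nes, Prom1, Thbs4, Neurog2, Neurod4 and Draxin read below the median gene on all 12 arrays, Tnc on 11 and Igfbpl1 on 10, so differences of these genes were measured at low signal.

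The tissues differed in most of the genes, and the young neuron markers lay mainly on the side of the bulb. In wild type 25 of 34 passed the test of hippocampus against bulb, where 40.9% of all genes did. Of these, 7 were higher in hippocampus (17.5% of all genes) and 18 were lower (23.4% of all genes). In the knockout 26 passed, against 39.1% of all genes, with 8 higher (19.2% of all genes) and 18 lower (19.9% of all genes). The test throughout was limma over the 12 arrays with Benjamini-Hochberg adjustment over the 19938 genes at 0.05. The arrays of the tissues did not overlap for 8 higher and 20 lower genes in wild type (20.8% and 30.1% of all genes) and for 9 higher and 20 lower genes in the knockout (24.2% and 24.7% of all genes). The median difference of the 34 genes was -0.24 in wild type and -0.28 in knockout, beside -0.07 and 0.01 over all genes. By stage, the wild-type medians were -0.10 for the stem cell genes, 0.14 for the commitment genes and -0.65 for the young neuron genes.

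**Figure D1:**
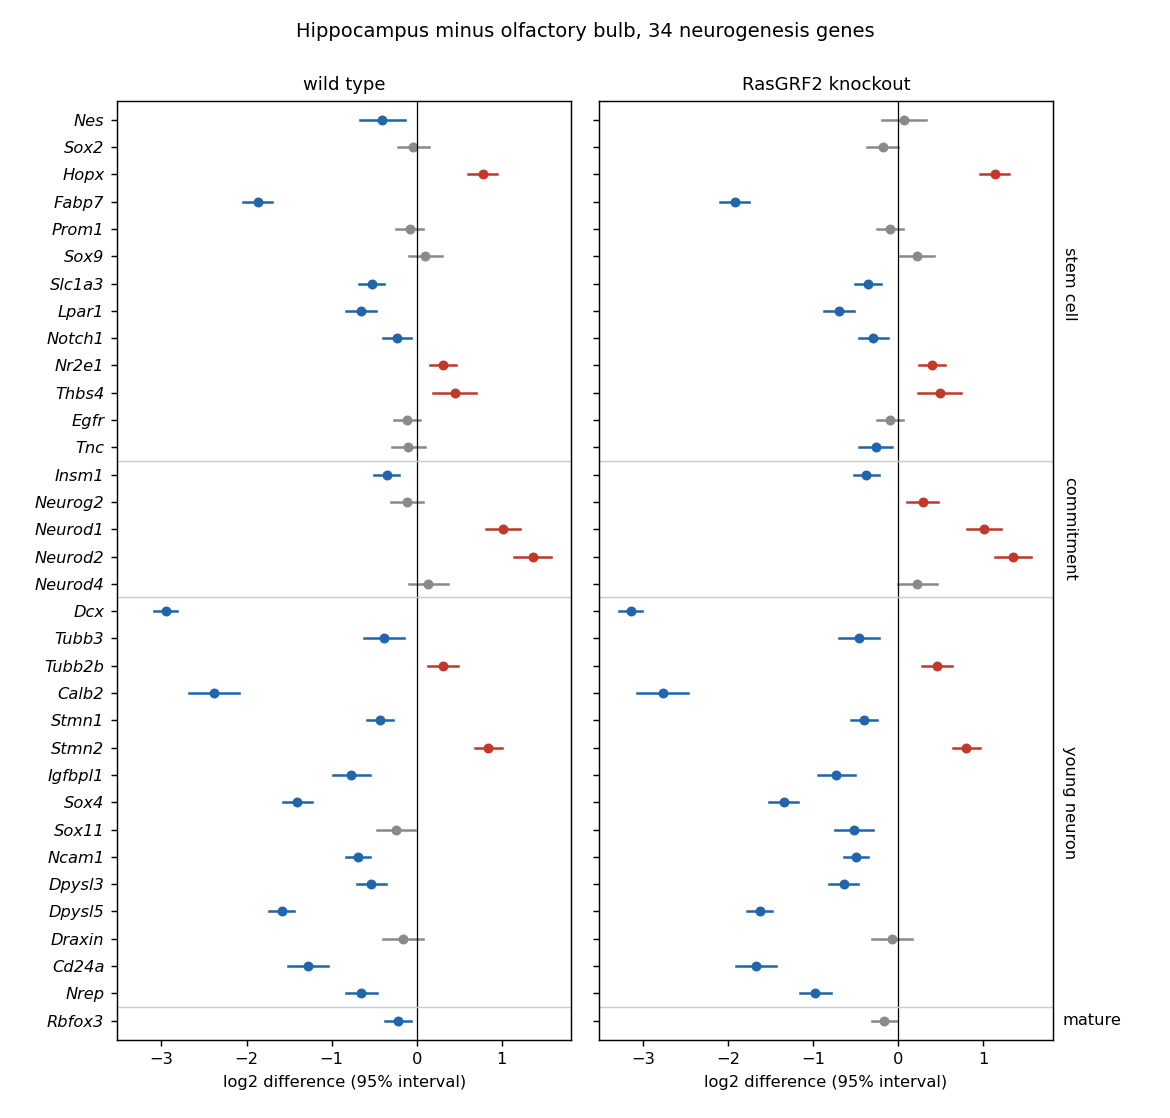
Difference between hippocampus and olfactory bulb (log2, x axis) for the 34 genes in stage order (y axis), in wild type on the left and knockout on the right; points are limma estimates and bars their 95% intervals, blue where lower in hippocampus, red where higher and grey where the test was not passed. Most young neuron genes lie left of 0, with Dcx and Calb2 farthest (-2.95 and -2.38 in wild type), while Neurod1 and Neurod2 lie right of it (1.01 and 1.36).

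Doublecortin (Dcx), the microtubule-associated protein that marks migrating neuroblasts and immature granule neurons, differed most. It read 11.31, 11.25 and 11.33 in wild-type bulb and 8.39, 8.30 and 8.35 in wild-type hippocampus. In knockouts it read 11.40, 11.28 and 11.38 in bulb and 8.20, 8.25 and 8.18 in hippocampus. The tissues stood far apart, and Dcx was 7.73-fold lower in hippocampus in wild type (log2 -2.95, SE 0.063, limma adjusted p = 5.94e-14) and 8.84-fold lower in the knockout (log2 -3.14, adjusted p = 3.54e-14). Calretinin (Calb2), a calcium-binding protein of immature granule neurons and of mature interneurons, read 11.82, 11.71 and 11.76 in wild-type bulb against 9.48, 9.27 and 9.39 in hippocampus. That was 5.21-fold lower in hippocampus (log2 -2.38, SE 0.139, limma adjusted p = 2.4e-09), and 6.82-fold lower in the knockout. Knockout hippocampus replicate 6 read 8.71 for Calb2, against 9.31 and 9.46, and without it the knockout difference was log2 -2.54.

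The other young neuron genes followed in smaller steps. Dpysl5, a collapsin response mediator of growth cones, read 9.55, 9.52 and 9.59 in wild-type bulb and 7.96, 7.99 and 7.95 in hippocampus. Its difference was -1.59 in wild type and -1.63 in knockout (limma adjusted p = 9.49e-11 and 7.19e-11). Sox4, a transcription factor of neuronal differentiation, read 8.75, 8.50 and 8.53 against 7.17, 7.28 and 7.11, which put it 2.65-fold lower in hippocampus (log2 -1.40, SE 0.079). The surface glycoprotein gene Cd24a, used to sort neuroblasts, read 9.62, 9.12 and 9.28 in wild-type bulb and 8.12, 8.04 and 8.02 in hippocampus. Its difference was -1.28 in wild type and -1.68 in knockout, and bulb and hippocampus arrays did not overlap in either genotype. Lower in hippocampus by less than 1 log2 unit in both genotypes were Igfbpl1, a marker of immature neurons (-0.77 and -0.73), the adhesion molecule Ncam1 (-0.69 and -0.50), Nrep (-0.65 and -0.98), Dpysl3 (-0.54 and -0.64), the tubulin-binding Stmn1 (-0.43 and -0.41) and the neuronal tubulin Tubb3 (-0.38 and -0.46). In wild type Tubb3 missed the threshold without bulb replicate 3 (adjusted p = 0.0517). Stmn1 was the only one of the 34 with a further probe set.

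A pair of young neuron genes lay on the other side. Stmn2, which binds tubulin in growing axons, read 10.69, 10.85 and 10.95 in wild-type bulb and 11.64, 11.69 and 11.68 in hippocampus, so that it was 1.79-fold higher in hippocampus (limma adjusted p = 2.98e-07). The tubulin Tubb2b was 1.24-fold higher in wild type and 1.37-fold higher in the knockout (limma adjusted p = 0.00673 and 0.000383). Draxin, a secreted axon guidance protein, did not pass in either genotype (-0.16 and -0.07). Sox11, the close relative of Sox4, differed by -0.24 in wild type, where it did not pass (adjusted p = 0.0786), and by -0.52 in the knockout, where it did (limma adjusted p = 0.000841). Without knockout hippocampus replicate 6 the knockout difference of Sox11 was -0.37 (limma adjusted p = 0.0018).

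**Figure D2:**
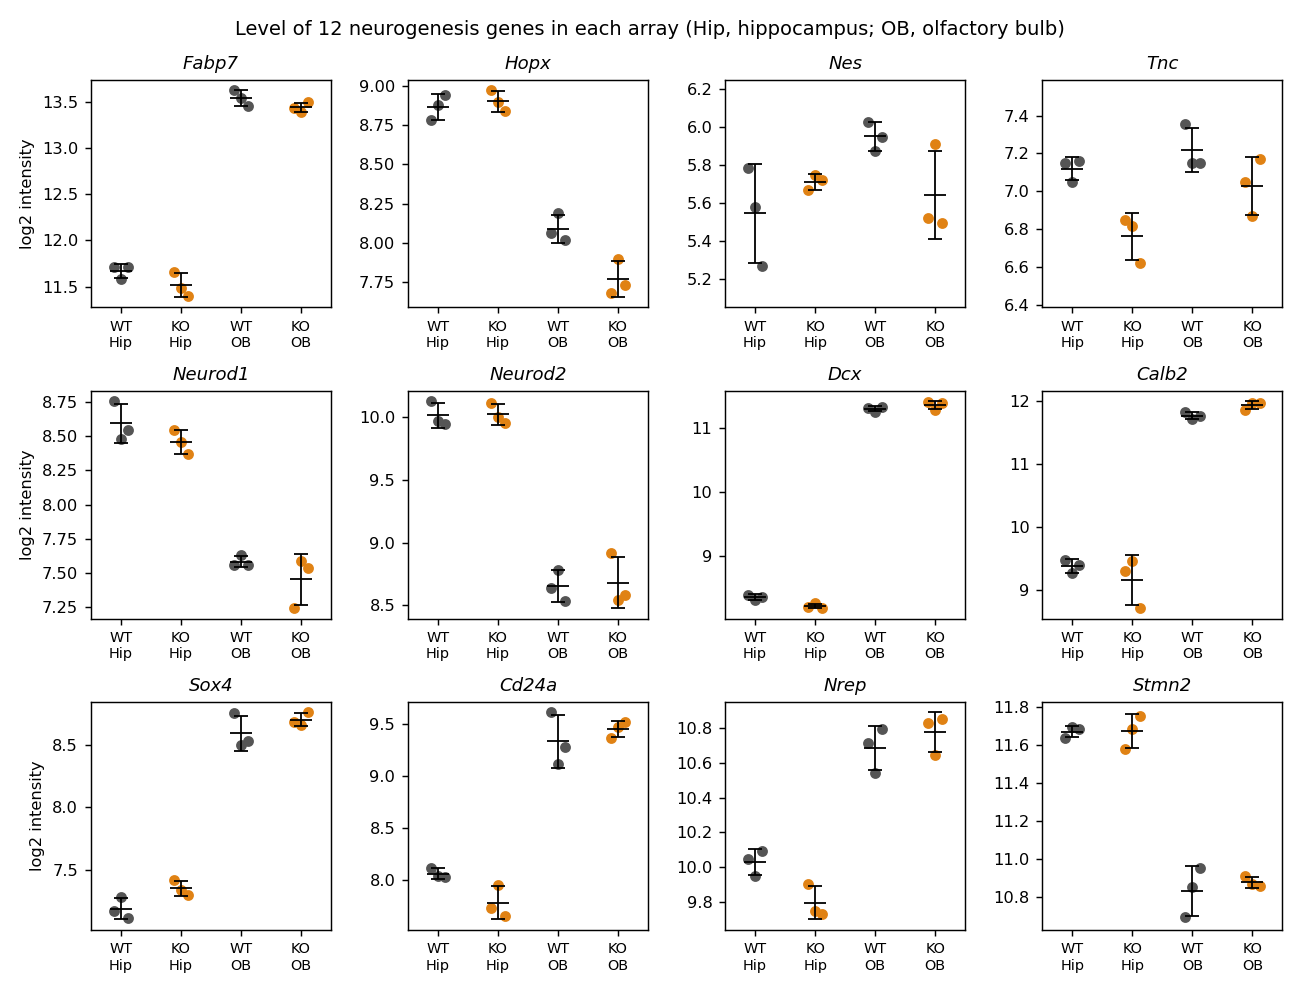
Level on each of the 12 arrays (RMA log2 intensity, y axis) of 12 of the 34 genes, 1 panel per gene, by tissue and genotype; each point is 1 array (grey wild type, orange knockout), lines give the mean and SD of 3 arrays, and axes do not start at 0. Dcx, Calb2 and Fabp7 lie higher in bulb and Neurod1, Neurod2 and Hopx higher in hippocampus in every array.

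The commitment genes are transcription factors that turn a progenitor toward the neuronal fate, and Neurod1 and Neurod2 lay higher in hippocampus. Neurod2, which dentate and pyramidal neurons keep expressing as adults, read 8.64, 8.78 and 8.54 in wild-type bulb and 10.13, 9.97 and 9.95 in hippocampus, 2.57-fold higher (log2 1.36, SE 0.100, limma adjusted p = 3.29e-08). Neurod1, needed for the survival and maturation of new granule neurons, read 7.56, 7.63 and 7.56 in bulb and 8.76, 8.48 and 8.55 in hippocampus. It was 2.02-fold higher in hippocampus in wild type and 2.01-fold higher in the knockout (limma adjusted p = 5.43e-07 and 5.85e-07). Insm1, a zinc finger factor of neurogenic progenitors, went the other way, at 7.90, 7.86 and 7.88 in bulb and 7.46, 7.65 and 7.46 in hippocampus (-0.35, SE 0.069, limma adjusted p = 0.00069). Neurog2 passed only in the knockout (0.29, limma adjusted p = 0.0153, and -0.11 in wild type), not without knockout bulb replicate 6 (0.0888) or hippocampus replicate 4 (0.0531). Neurod4, another factor of that family, did not pass in either genotype (0.14 and 0.22). The 7 markers of hippocampal principal neurons were higher in hippocampus by a median of 2.14 in wild type and 2.01 in knockout, and their part in Neurod1 and Neurod2 was not tested.

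The stem cell genes divided between the tissues. Fabp7, the brain fatty acid-binding protein of radial glia and of bulb glia, read 13.62, 13.54 and 13.45 in wild-type bulb and 11.71, 11.59 and 11.71 in hippocampus. It was 3.65-fold lower in hippocampus in wild type (log2 -1.87, SE 0.078, limma adjusted p = 6.5e-11) and 3.79-fold lower in the knockout. Of the 6 markers of olfactory ensheathing glia, 4 were lower in hippocampus in each genotype (23.4% of all genes in wild type, 19.9% in knockout). In the knockout 1 of the 6 was higher (19.2% of all genes). The median of the 6 was -0.80 in wild type and -0.46 in knockout, and their part in Fabp7 was not tested. Hopx, a homeodomain protein that marks quiescent dentate stem cells, read 8.06, 8.19 and 8.02 in wild-type bulb and 8.78, 8.88 and 8.94 in hippocampus. It was 1.71-fold higher in hippocampus in wild type and 2.19-fold higher in the knockout (limma adjusted p = 1.17e-06 and 1.85e-08). Also higher in hippocampus in both genotypes were the orphan nuclear receptor Nr2e1, which maintains stem cell self-renewal (0.31 and 0.39), and the matrix protein Thbs4 (0.45 and 0.48). Lower in both were the glutamate transporter Slc1a3 (-0.53 and -0.35), the lysophosphatidic acid receptor Lpar1 (-0.65 and -0.70) and the receptor Notch1, which keeps stem cells undifferentiated (-0.23 and -0.29).

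Notch1 in wild type missed the threshold with the animal as a block by code (limma adjusted p = 0.0609) but not by title number. It also missed without bulb replicate 2, hippocampus replicate 1 or hippocampus replicate 3 (limma adjusted p = 0.141, 0.102 and 0.0536). Nestin (Nes), the intermediate filament named in the title of the series, was 1.32-fold lower in wild-type hippocampus than in bulb (limma adjusted p = 0.015), but not without bulb replicate 1 (0.0544) or hippocampus replicate 3 (0.0908), nor after quantile normalization (0.0662). In the knockout its difference between the tissues was 0.07 (adjusted p = 0.703). Tnc, a matrix glycoprotein of stem cell niches, passed in the knockout alone (-0.27, limma adjusted p = 0.0311), and not with the animal as a block (0.0733 by code and 0.0554 by title number) or without knockout bulb replicate 4 or 6 or hippocampus replicate 6 (0.079, 0.151 and 0.135). It also missed when every probe set was tested (0.0535), with arrays centred (0.114) and after quantile normalization (0.119). The stem cell transcription factors Sox2 and Sox9, the membrane glycoprotein gene Prom1 and Egfr, the growth factor receptor of activated progenitors, passed in neither genotype. Rbfox3 was 1.16-fold lower in wild-type hippocampus (limma adjusted p = 0.0194), not without bulb replicate 1 or 3 or hippocampus replicate 3 (0.0661, 0.053 and 0.0791), and differed by -0.17 in the knockout (adjusted p = 0.0704).

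Across genotypes the tissue pattern repeated. In both genotypes 23 of the 34 genes passed in the same direction, 7 higher and 16 lower in hippocampus, where 30.6% of all genes did so (14.3% higher and 16.3% lower). By stage these were 3 higher and 4 lower of 13 stem cell genes, 2 higher and 1 lower of 5 commitment genes, and 2 higher and 11 lower of 15 young neuron genes. The sign was the same for 32 of 34, and the differences of the 2 genotypes, which rest on separate arrays, correlated at 0.984 over the 34 genes. For the genes that passed in 1 genotype alone (Nes, Rbfox3, Tnc, Neurog2 and Sox11), the difference between genotypes did not pass (limma adjusted p from 0.375 for Neurog2 to 0.861 for Rbfox3). The mean array median of hippocampus minus that of bulb was -0.113 in wild type and -0.0701 in the knockout. With every array set to a common median, 21 genes passed in wild type, and Nes, Notch1, Tubb3 and Rbfox3 were not among them (adjusted p = 0.0608, 0.285, 0.0666 and 0.279). In the knockout 27 passed, 10 higher and 17 lower, without Tnc and with Sox9 and Neurod4 added (limma adjusted p = 0.0238 and 0.0312).

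Windows of 250 bases before the annotated start show what lies upstream of genes that differed most between the tissues. RefSeq's promoter table for assembly GRCm38.p6 held entries for 23 of the 34. Each window was searched on both strands for the E-box letters CAGATG (read CATCTG on the other strand), a sequence that Neurod proteins can bind with a partner, and for the palindrome CAGCTG. These hexamers do not match each other. Of the 23, the 2 genes of largest wild-type difference in each direction follow, 5′ to 3′ on the strand of the gene, with CAGATG or CATCTG in capitals.
Dcx, chrX:143933220-143933469, minus strand: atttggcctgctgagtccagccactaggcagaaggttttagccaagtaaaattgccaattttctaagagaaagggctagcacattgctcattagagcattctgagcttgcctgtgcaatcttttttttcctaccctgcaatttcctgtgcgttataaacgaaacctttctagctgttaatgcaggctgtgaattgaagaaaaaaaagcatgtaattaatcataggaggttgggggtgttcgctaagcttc
Fabp7, chr10:57784673-57784922, plus strand: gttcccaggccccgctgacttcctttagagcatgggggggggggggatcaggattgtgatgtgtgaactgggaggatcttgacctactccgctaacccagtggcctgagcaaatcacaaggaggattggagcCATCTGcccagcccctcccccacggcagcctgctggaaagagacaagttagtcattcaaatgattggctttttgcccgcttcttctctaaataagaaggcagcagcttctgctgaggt
Neurod2, chr11:98329646-98329895, minus strand: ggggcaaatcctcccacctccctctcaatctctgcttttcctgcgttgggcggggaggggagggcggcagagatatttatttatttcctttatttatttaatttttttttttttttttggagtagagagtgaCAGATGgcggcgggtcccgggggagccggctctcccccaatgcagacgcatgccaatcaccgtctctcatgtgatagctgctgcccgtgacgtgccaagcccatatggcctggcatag
Neurod1, chr2:79456637-79456886, minus strand: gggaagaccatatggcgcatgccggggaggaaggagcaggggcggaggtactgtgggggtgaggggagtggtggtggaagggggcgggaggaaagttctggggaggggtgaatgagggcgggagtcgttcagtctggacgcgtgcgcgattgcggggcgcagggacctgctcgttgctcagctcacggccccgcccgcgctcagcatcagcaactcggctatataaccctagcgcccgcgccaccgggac

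Of these, Fabp7 and Neurod2, which lay on opposite sides in the tissue comparison, each held CAGATG in 1 place, and the Dcx and Neurod1 windows held neither hexamer. CAGATG was in 2 of the 23 windows, and in 14.5% of all 27025 windows of the promoter table, 1 per gene. CAGCTG was in 3 of the 23, those of Sox4, Sox11 and Draxin, and in 12.8% of all these windows. A match describes the letters of the window and is not a binding site.

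Within hippocampus, none of the 34 genes passed the test of knockout against wild type, where 0.256% of all genes did. At an unadjusted p under 0.05 there were 4, beside 8.91% of all genes. The differences divided evenly, 17 above and 17 below 0, with a median of 0.00 beside 0.03 over all genes, of which 63% lay above 0. Every 95% interval lay within a 1.5-fold change, and 22 of 34 lay within 1.25-fold.

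Dcx in hippocampus read 8.39, 8.30 and 8.35 in wild type and 8.20, 8.25 and 8.18 in the knockout. The groups did not overlap, and the difference of -0.14 (SE 0.063, 95% interval -0.27 to -0.0013) did not pass (limma adjusted p = 0.559). Nes read 5.79, 5.58 and 5.27 in wild type and 5.67, 5.75 and 5.72 in the knockout. The knockout arrays lay inside the range of the wild-type arrays, with a difference of 0.17 (SE 0.122, 95% interval -0.10 to 0.43, limma adjusted p = 0.704).

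Tnc had the largest difference of the 34 in hippocampus, with 7.15, 7.05 and 7.16 in wild type and 6.85, 6.82 and 6.62 in the knockout (-0.35, SE 0.091, limma adjusted p = 0.204). Cd24a read 8.12, 8.04 and 8.02 against 7.73, 7.96 and 7.65 (-0.28, SE 0.111, limma adjusted p = 0.511). Nrep, a small protein of growing and regenerating neurons, read 10.05, 9.95 and 10.09 against 9.91, 9.75 and 9.73 (-0.23, SE 0.085, limma adjusted p = 0.489). All knockout arrays of these 3 genes lay below all wild-type arrays. The groups did not overlap for 5 genes lower in the knockout (Tnc, Insm1, Dcx, Cd24a and Nrep), 14.7% of the 34 beside 3.66% of all genes, and for 2 higher ones (Nr2e1 and Sox4), 5.88% beside 9.39% of all genes. Sox4 read 7.17, 7.28 and 7.11 in wild type and 7.42, 7.34 and 7.30 in the knockout (0.16, SE 0.079).

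Knockout hippocampus replicate 6 stood apart for Calb2 and Sox11 among the young neuron genes. Calb2 read 8.71 there and 9.31 and 9.46 on the other knockout arrays, and Sox11 read 7.59 there against 7.96 and 8.09. Without that array the differences of Calb2 and Sox11 from wild type were 0.0077 and 0.04, beside -0.22 and -0.11 with it. Those of Tnc, Cd24a and Nrep were -0.28, -0.22 and -0.20 without it. All 8 oligodendrocyte markers lay above wild type in knockout hippocampus by a median of 0.27, 0 of them past the threshold. Their mean per array stood at -0.0069, 0.313 and 0.45 from the wild-type mean, highest on the same array. All 6 ependymal markers lay above by a median of 0.20. The part of these cells in the values of the neurogenesis genes was not tested.

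**Figure D3:**
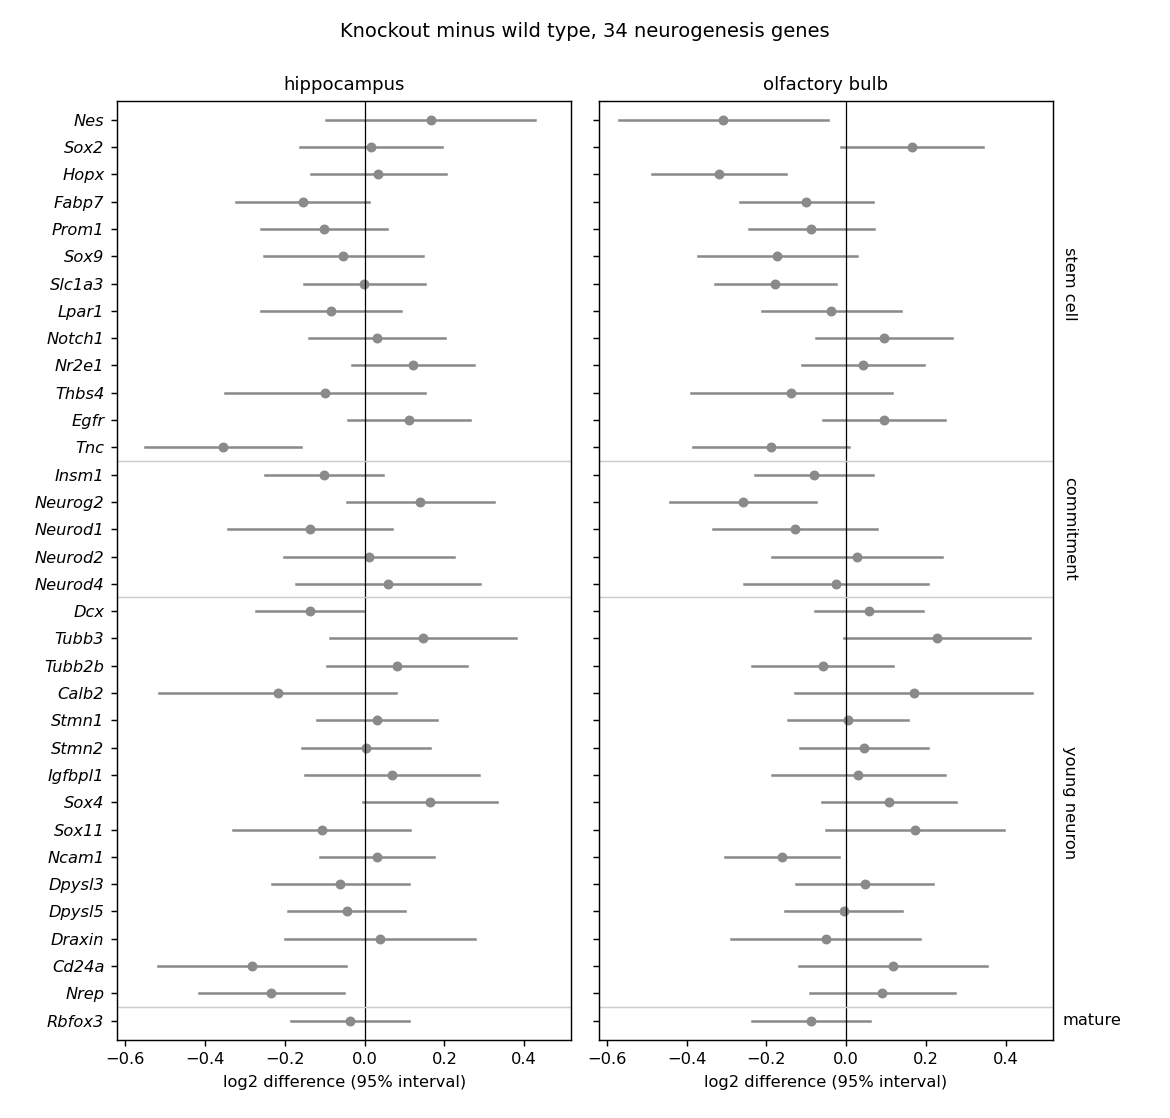
Difference between knockout and wild type (log2, x axis) for the 34 genes in stage order (y axis), in hippocampus on the left and olfactory bulb on the right; points are limma estimates and bars their 95% intervals, all grey because none passed the test. All intervals lie within a 1.5-fold change (log2 0.585 either way).

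Within the bulb, too, 0 of 34 genes passed the test of knockout against wild type in limma, where 0.411% of all genes did, and 5 had an unadjusted p under 0.05, beside 11.3% of all genes. The median difference was -0.02, the same as over all genes, with 16 above and 18 below 0. Hopx came closest, with 8.06, 8.19 and 8.02 in wild type and 7.68, 7.90 and 7.73 in the knockout (-0.32, SE 0.079, limma adjusted p = 0.122). Every knockout array read below every wild-type array. Neurog2 read 6.21, 6.17 and 6.18 against 6.04, 5.96 and 5.78 (-0.26, SE 0.086, limma adjusted p = 0.297), again without overlap. Nes read 6.03, 5.88 and 5.95 against 5.52, 5.91 and 5.50 (-0.31, SE 0.122, limma adjusted p = 0.386), and 1 of its knockout arrays lay within the wild-type range. Dcx differed by 0.06 (SE 0.063, 95% interval -0.08 to 0.19).

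By stage, and with no gene past the threshold, 9 of 13 stem cell genes in the bulb lay below 0 (median -0.10), and 11 of 15 young neuron genes lay above it (median 0.05), where 44.5% of all genes lay above. The signs were not tested by stage. Of 5 commitment genes 1 lay above 0 (median -0.08), and Rbfox3 differed by -0.09. In the separate list of 20 further stem cell genes, 9 lay above and 11 below 0 in the bulb (median -0.03). In hippocampus 6 of the 13 stem cell and 8 of the 15 young neuron genes lay above 0, with medians of -0.0011 and 0.0024. The mean of the stem cell genes per array was 8.58, 8.55 and 8.50 in wild-type bulb and 8.46, 8.47 and 8.44 in knockout bulb. These did not overlap, and the distance from the wild-type mean was -0.0834, -0.0756 and -0.103. Array means in knockout bulb also lay below all wild-type ones for the commitment genes and the 20 further stem cell genes (-0.0303, -0.0659 and -0.0883). The same held for markers of oligodendrocytes, of their precursors, and of endothelium and pericytes. Array means lay above all wild-type ones for bulb neuron markers and for a separate list of young and adult-born neuron genes. These lists share Dlx2 and Meis2. The separate list holds Dlx5, whose difference of 0.84 in the bulb was its largest, beside a list median of 0.02. Its array means stood at 0.0664, 0.0653 and 0.0726 from wild type, and the highest wild-type array at 0.0406. They were not recomputed without Dlx5. The mean of the young neuron genes in knockout bulb stood at 0.012, 0.03 and 0.116 from wild type.

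Groups did not overlap in the bulb for 6 genes lower in the knockout (Hopx, Sox9, Slc1a3, Insm1, Neurog2 and Ncam1), 17.6% of the 34 beside 8.87% of all genes. They did not overlap for 2 higher ones (Calb2 and Sox11), 5.88% beside 8.22%. Slc1a3 read 11.50, 11.52 and 11.52 in wild type and 11.46, 11.29 and 11.26 in the knockout (-0.18, limma adjusted p = 0.388). Sox9, a factor of stem cells and astrocytes, read 9.16, 9.05 and 8.94 against 8.88, 8.87 and 8.87. Of the 8 astrocyte markers taken as a check, 4 lay above and 4 below 0 in knockout bulb, with a median of 0.01 and 0 past the threshold. Of the 6 markers of olfactory ensheathing glia, 5 lay below 0 (median -0.17), of the 8 oligodendrocyte markers 7 did (median -0.10), and of the 6 markers of their precursors 5 did (median -0.16). Below 0 as well were 6 of 7 markers of endothelium and pericytes (median -0.06), 5 of 5 of choroid plexus (median -0.07) and 5 of 6 of ependyma (median -0.05), whereas 3 of 5 microglia markers lay above (median 0.0009). Of the 6 general neuron markers 4 lay below 0 (median -0.02), and their array means stood at 0.00278, -0.0684 and -0.0967 from wild type. Of the 7 markers of hippocampal principal neurons 5 lay below 0 (median -0.06), and of the 8 bulb neuron markers 3 did (median 0.07). The part of these cells in the values of the stem cell genes was not tested.

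**Figure D4:**
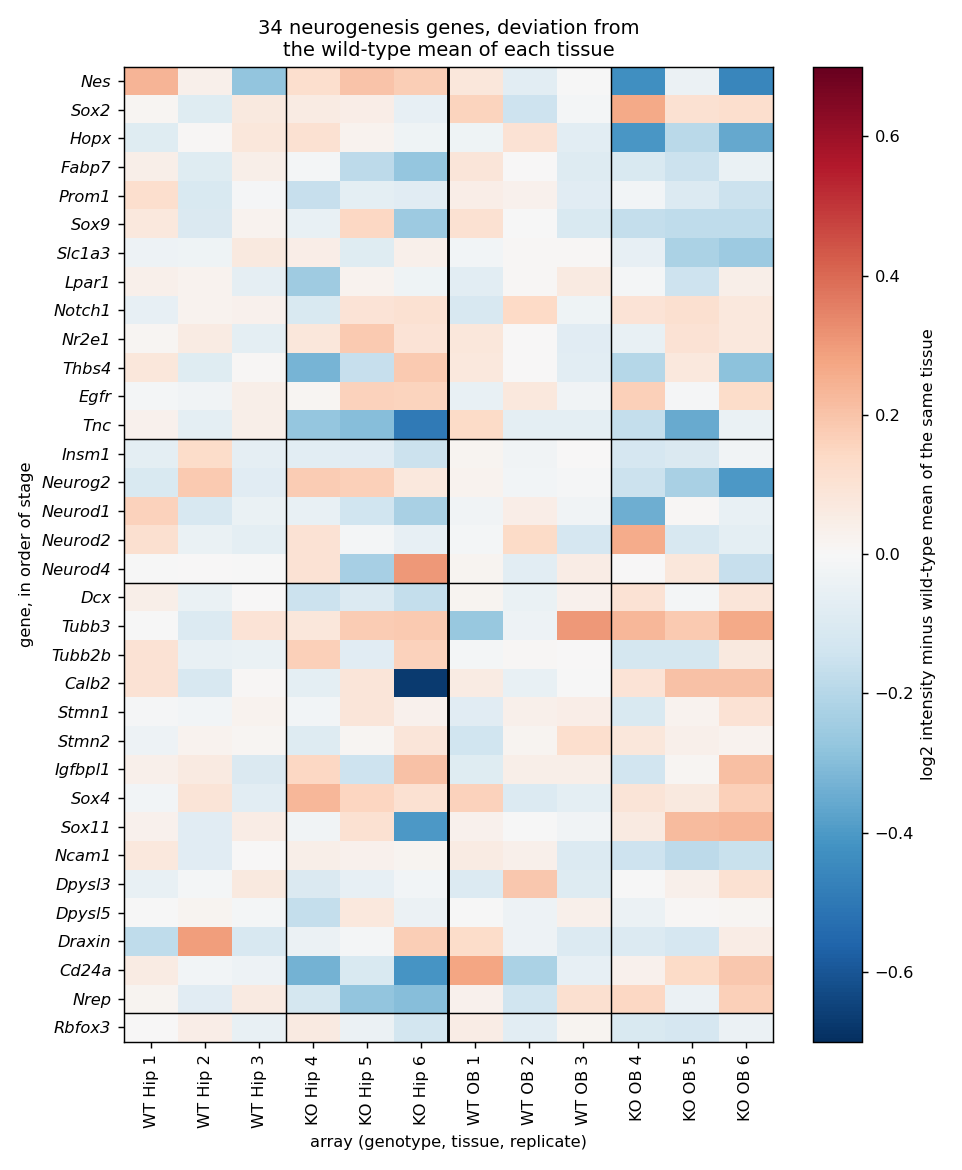
Distance of each of the 34 genes (rows, stage order) on each array (columns, by tissue and genotype) from the wild-type mean of the same tissue, in log2 units by colour. The lowest value, -0.67, is Calb2 on knockout hippocampus replicate 6; Tnc is below the wild-type mean on all knockout hippocampus arrays and Hopx on all knockout bulb arrays.

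Averaged over the tissues of each animal, Tnc alone of the 34 passed the test of knockout against wild type, where 0.577% of all genes did (0.266% lower). Its difference was -0.27 (SE 0.051, limma adjusted p = 0.0418, 3 animals against 3). Leaving out any of the 6 animals ended the call (adjusted p from 0.0798 to 0.190), as did testing every probe set (0.126) and joining the tissues by title number (0.0837). At an unadjusted p under 0.05 there were 5 of the 34, beside 9.93% of all genes.

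The effect of the knockout was compared between the tissues by the interaction term. None of the 34 genes passed, where 0.015% of all genes did, and 6 had an unadjusted p under 0.05 in limma, beside 10.7% of all genes. They were Nes (0.47, SE 0.173), Neurog2 (0.40, SE 0.122) and Hopx (0.35, SE 0.111), more positive in hippocampus, and Cd24a (-0.40, SE 0.157), Nrep (-0.32) and Dcx (-0.19), more negative there. Their limma adjusted p-values ran from 0.375 to 0.467.

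Other genes of the same sequence were counted from 3 further lists with 61 measured genes. The lists were chosen with results of these data known, so their counts are a description. Between the tissues 78.7% of the 61 passed in wild type and 72.1% in the knockout, beside 40.9% and 39.1% of all genes. Among 25 genes of young and adult-born neurons, 9 were higher in hippocampus in each genotype (17.5% of all genes in wild type, 19.2% in knockout). Another 15 were lower there (23.4% and 19.9% of all genes). Those highest in wild-type hippocampus were Neurod6 (4.20), Prox1, the fate determinant of granule neurons (3.31), Calb1 (2.72), Tbr1 (1.14), Fxyd7 (0.84) and Zbtb20 (0.67), and the same 6 led in the knockout. Those lowest were transcription factors of bulb interneurons, Meis2 (-3.70), Dlx1 (-3.23), Dlx2 (-2.48), Dlx5 (-2.34), Sp8 (-2.19) and Sp9 (-2.04), while in the knockout Dlx6 (-1.98) stood among the lowest 6 in place of Sp9.

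Of all genes, 17.5% were higher in hippocampus and 23.4% lower in wild type, and 19.2% and 19.9% in the knockout. Among 16 progenitor and cell cycle genes, 2 were higher in hippocampus in wild type (Ccnd2 0.84, Mcm6 0.71) and 7 lower. The lowest was Eomes (-4.08), a factor of intermediate progenitors that mature mitral and tufted cells of the bulb also express, followed by Btg2 (-0.86), Mex3a (-0.72), Tfap2c (-0.42), Cdk1 (-0.31) and Neurog1 (-0.26). In the knockout the same 2 were higher and 5 were lower, namely Eomes (-4.51), Mex3a (-0.95), Btg2 (-0.69), Tfap2c (-0.41) and Ccna2 (-0.27), and the median of the 16 was 0.07 beside -0.12 in wild type. Among 20 further stem cell genes, 4 were higher in wild type (Hes1 0.80, Id4 0.61, Fgfr3 0.43 and Id1 0.28) and 11 lower, the lowest being Pax6 (-2.08), Vim (-0.95), Msi2 (-0.92), Notch2 (-0.81), Sox1 (-0.81) and Msi1 (-0.76). In the knockout 4 were higher (Hes1 0.74, Id4 0.72, Fgfr3 0.57 and Gfap 0.49) and 9 lower, with Dll1 (-0.55) among the lowest 6 in place of Sox1.

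Between genotypes in hippocampus, 0 of the 61 genes passed the limma test, beside 0.256% of all genes. An unadjusted p under 0.05 was found for 4 of 20 stem cell, 3 of 16 progenitor and 2 of 25 young neuron genes, 14.8% of the 61 beside 8.91% of all genes. The differences included Btg2 (-0.58, adjusted p = 0.0989), Vim (-0.40, adjusted p = 0.339) and Id4 (-0.24, adjusted p = 0.258). The proliferation marker Mki67 differed by 0.20 there (limma adjusted p = 0.489), at low signal. It read 5.70, 5.70 and 5.70 in wild type and 5.91, 5.78 and 6.02 in the knockout, below the median gene of each array. The bulb interneuron factors Meis2 and Sp9 differed by 0.18 and 0.20 in hippocampus. In the interaction with tissue 0 of the 61 passed and 8 had an unadjusted p under 0.05, with limma adjusted p-values of 0.241 for Dlx5 (-0.68), 0.375 for Neurog1 (0.35), 0.389 for Eomes (-0.43), 0.392 for Sema3c (-0.33), 0.419 for Sox1 (0.36) and 0.494 for Hes5 (0.20).

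In the bulb 1 gene of each list passed, 4.92% of the 61 beside 0.411% of all genes. Id4, an inhibitor of differentiation that keeps stem cells quiescent, was lower in the knockout (-0.34, limma adjusted p = 0.0375), but not with any of the 6 bulb arrays left out (adjusted p from 0.0604 to 0.195) or with the bulb groups fitted alone (0.151). Btg2, an antiproliferative gene of neurogenic progenitors that is also induced by activity, was lower (-0.75, limma adjusted p = 0.0188), but not without wild-type replicate 2 or 3 or knockout replicate 4 or 6 (0.0563, 0.0502, 0.0928 and 0.106) or with the bulb groups alone (0.0524). Dlx5, a factor of bulb interneurons, was higher (0.84, limma adjusted p = 0.00117), and passed under all 15 alternatives tried for it (0.74 to 0.94). Of the 25 genes of its list, 16 lay above 0 and 9 below in the bulb (median 0.02). Means in wild-type and knockout bulb were 11.15 and 11.18 for Dlx1, 9.68 and 9.63 for Dlx2, and 8.75 and 8.94 for Dlx6. They were 12.71 and 12.67 for Meis2, 7.59 and 7.61 for Sp8, and 9.20 and 9.30 for Sp9. For the genes of these lists the test of every probe set was not among the alternatives. Averaged over tissues 4 of the 61 passed, 6.56% beside 0.577% of all genes. In that comparison, which uses the same bulb arrays, Btg2, Id4 and Dlx5 passed too (limma adjusted p = 0.00917, 0.0269 and 0.00437), and so did Vim (-0.43, adjusted p = 0.037). With 1 animal left out the limma adjusted p reached 0.127 for Id4, 0.0666 for Btg2 and 0.177 for Vim. Vim also missed with the tissues joined by title number (0.0546), while Dlx5 passed under all 13 alternatives tried for it.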

How the data were processed

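Per the labels' protocols, Trizol was used to extract total RNA, which was fragmented and biotinylated, and each sample had its own 1-colour array. The authors deposited log2 values for 35556 probe sets, made with RMA and the oligo package per the submitters' processing notes. RMA makes array distributions alike and compresses differences near background. The sources used here give no versions and do not say if both tissues were normalized as 1 set.

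The platform annotation gave 21789 probe sets 1 symbol, 1621 several and 12146 none. Of the first, 21698 matched RefSeq genes of GRCm38.p6 by Entrez identifier and 0 symbols changed. The probe set of highest mean stood for each of 19938 genes, and none was filtered for low signal. Promoter sequences are RefSeq's. The number of arrays limits the precision. Replicates differed with an SD of 0.212 to 0.297 over probe sets, so none was a copy.

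Groups were compared in R 4.3.3 by limma 3.58.1, with the deposited log2 values in a model of 4 group means over 12 arrays, without the animal as a block. For the mean over tissues, each animal's hippocampus and bulb values were averaged before the fit. The limma test of knockout against wild type in hippocampus was also run on simulated data, and the other comparisons were not. Figures were drawn with matplotlib 3.10.9. The members and lists were chosen with earlier results of these data known. All 34 members may be named. From each of 3 further lists, 61 of 65 entries measured, the genes past the threshold were named, at most the 6 of largest change per direction and comparison, or the 2 of smallest p. Cell type markers (72 of 74 measured) are given as lists.

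Each animal gave both tissues. The animal code of the labels pairs them, whereas the title's number pairs the tissues of 2 wild-type animals in another way. Deviations of tissues with the same code from their group means correlated at -0.255 to 0.116 over genes. The consensus correlation of the animal as a block was -0.0697 by code and -0.0316 by title number. Alternatives tried were all probe sets, a filter on low signal, mean probe sets, array centring, quantile normalization, limma's trend and robust settings, array weights, the animal as a block, the compared groups alone, and each replicate left out.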

Additional observations from a re-analysis of the deposited data

How the results depend on the processing

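In the comparisons of knockout with wild type, 0 of the 34 genes passed under each of 16 alternatives in hippocampus and 16 in bulb, and 0 passed under 21 alternatives in the interaction of genotype and tissue. For the mean over tissues the count was 1, and it was 0 when every probe set was tested, when genes above the median signal were kept, with the replicate block by title number, and without each of the 6 animals in turn (0 to 0). The filter removed Tnc and left 26 of the 34 genes. The cause of the other changes was not tested. In wild type 25 genes differed between the tissues, 21 to 26 over 16 alternatives and 22 to 26 with 1 replicate left out. In the knockout 26 did, 24 to 29 and 24 to 27. With the replicate block by animal code, 24 passed in wild type and 25 in the knockout, and with the block by title number 25 and 25. Apart from Notch1 in wild type and Tnc in the knockout, the blocks ended no call between the tissues. The genes that passed under every alternative that measured them numbered 21 of 25 in wild type, the exceptions being Nes, Notch1, Rbfox3 and Tubb3, and 24 of 26 in the knockout, the exceptions being Neurog2 and Tnc. No difference that passed changed direction. Low signal limits Nes, Prom1, Thbs4, Neurog2, Neurod4, Draxin, Tnc and Igfbpl1, and 3 animals a group gave standard errors of 0.0633 to 0.139 within and between tissues, 0.0896 to 0.197 for the interaction and 0.0475 to 0.0856 for the mean over tissues.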
